A study of Mus musculus with 8 samples.

Results

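The genes described here encode the enzymes and regulators of the first steps of branched-chain amino acid breakdown. They are the 10 genes Bcat1, Bcat2, Bckdha, Bckdhb, Dbt, Dld, Bckdk, Ppm1k, Ivd and Mccc1, taken by name, and all 10 were found among the 55536 genes of the count files. In RNA-seq all 10 had a mean count of at least 30 over the 4 libraries and were treated as measured. In ribosome footprints 9 were measured, and Ppm1k, with 5 to 42 footprints a library, was not.

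Leucine, isoleucine and valine are first transaminated to branched-chain keto acids, by BCAT1 in the cytosol and BCAT2 in mitochondria. The branched-chain keto acid dehydrogenase complex (BCKDH) then commits the keto acids to oxidation in the mitochondrial matrix. Its decarboxylase is built from BCKDHA and BCKDHB, its transacylase core from DBT, and its dihydrolipoamide dehydrogenase is DLD, a subunit shared with the pyruvate and 2-oxoglutarate dehydrogenase complexes and the glycine cleavage system. The kinase BCKDK phosphorylates BCKDHA and lowers the activity of the complex, and the phosphatase PPM1K removes that phosphate. IVD and MCCC1 act further down on carbon from leucine: IVD oxidises isovaleryl-CoA, and MCCC1 is the biotin-carrying subunit of 3-methylcrotonyl-CoA carboxylase.

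The cells were KRPC-A, a line of PDAC-like pancreatic tumour cells from genetically engineered mice on the C57BL/6 background, either Gcn2 wild type (WT) or Gcn2 knockout (KO). Each genotype spent 1 h in medium with all amino acids (replete) or in medium lacking leucine, and each of the 4 conditions has an RNA-seq and a footprint library. GCN2, encoded by Eif2ak4, is a kinase that senses uncharged transfer RNA and, through eIF2alpha, raises translation of ATF4, a transcription factor. Footprints are the mRNA pieces that ribosomes shield from nuclease, and their count follows the number of ribosomes on an mRNA. The sources used here do not give the way the KO was made, or whether either genotype is a single clone.

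Each of the 8 groups is 1 library, so no spread between cultures could be estimated, no difference has a replicate check, and no p-value was computed. The RNA-seq libraries held 30637776 to 41196438 protein-coding reads and the footprint libraries 2400588 to 9170465, the fewest in the WT leucine-free footprint library, which enters every WT leucine-free footprint value below. Intervals are 95% and reflect counting error alone, because they are computed from the read counts of single libraries. PCR copies were not told apart by molecular identifiers, and copies counted as separate reads would make the intervals too narrow. Eif2ak4 was counted 3601 and 2838 times in the WT RNA libraries and 522 and 519 times in the KO RNA libraries, so its transcript was lower in KO but not absent. Atf4 footprints were 2.90-fold higher in leucine-free than in replete WT cells, a log2 ratio of 1.54 (1.43 to 1.65). In KO cells the footprint ratio was 0.07 (-0.05 to 0.19). Atf4 RNA was also higher without leucine, at 0.90 (0.87 to 0.94) in WT and 0.18 (0.15 to 0.21) in KO cells. The WT footprint ratio therefore includes an RNA difference and does not measure translation alone. In replete medium Atf4 RNA was higher in KO than in WT cells, at 0.82 (0.79 to 0.86). Of 8 epithelial and duct markers 5 were measured in RNA-seq, and Epcam was at 0 in all 4 libraries. The list summed to 240 and 333 CPM in replete and leucine-free WT cells and to 481 and 1104 CPM in KO cells, so it was higher in KO in both media. Sox9 and Krt18 made up most of that sum. Sox9 stood at 157 and 193 CPM in WT and 296 and 760 CPM in KO cells, and Krt18 at 61.0 and 108 CPM and 148 and 286 CPM. All 5 measured markers were higher in KO in both media, whereas Krt19, too low to be measured, was lower in KO. Of 6 mesenchymal markers 4 were measured (Col1a1, Col1a2, Pdgfrb and Vim), with list sums of 1160 to 1164 CPM in KO and 1300 to 1652 CPM in WT cells. Vim made up most of that sum, at 1240 and 1586 CPM in replete and leucine-free WT cells and 1105 and 1093 CPM in KO cells. Col1a1 and Col1a2 RNA was lower in KO in both media, and Pdgfrb RNA was higher. In footprints the list summed to 7088 and 5753 CPM in WT and 7627 and 4990 CPM in KO cells, so the genotype order differed between the media. Acinar, immune and endothelial lists summed to at most 0.632 CPM in RNA-seq. In bulk cultures fewer cells of a kind and less RNA per cell cannot be told apart.

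Levels are normalised CPM, scaled within an assay by trimmed mean of M-values (TMM) factors, so they are relative to the other protein-coding genes of a library. Dld was the most abundant member: its RNA level was 225 CPM replete and 251 leucine-free in WT cells, and 204 replete and 191 leucine-free in KO cells. Its footprint level was 478, 402, 395 and 311 CPM in that order, which is kept wherever 4 values stand together below. Both KO libraries lay below both WT libraries in RNA, and in footprints the KO leucine-free library was the lowest. Per kilobase of exon shared with no other gene, Dld stood at 51.7 to 68.1 CPM in RNA and at 84.6 to 130 CPM in footprints, ahead of every other member in all 8 libraries. It serves several complexes, and the ratio of Dld to Dbt RNA per kilobase, 19.8 in WT replete cells, compares that shared subunit with the transacylase that belongs to BCKDH alone.

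The other RNA levels per kilobase formed steps whose ranges over the 4 libraries partly overlapped. Bckdk was second at 23.4 to 28.5 CPM per kilobase, separate from Dld above it and from Ivd below it. Ivd followed at 9.52 to 12.0 and Bcat1 at 7.05 to 9.63, with overlapping ranges. Bcat2 at 3.26 to 4.17, Bckdhb at 2.21 to 4.34 and Dbt at 1.5 to 3.20 came next, with no gap between neighbours. Bckdha, Mccc1 and Ppm1k were the lowest, between 0.987 and 2.81 CPM per kilobase over all 3 genes and 4 libraries, a span that overlaps that of Dbt.

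The order differed in footprints. Bckdha stood at 18.9 to 24.4 footprint CPM per kilobase, second to Dld in 3 of 4 libraries, while Ppm1k at 0.343 to 0.801 was last and Dbt at 1.66 to 4.67 was ninth in all 4. The length used covers all exonic bases shared with no other gene, untranslated parts included. These levels therefore understate the ribosome density on a short coding region in a long transcript. For Bckdha the length is 728 bases at the 5′ end, described below, so its place among the members in either assay does not compare whole transcripts. The cytosolic transaminase Bcat1 exceeded the mitochondrial Bcat2 per kilobase by 2.12 to 2.33-fold in RNA over the 4 libraries. In footprints the ratio was 1.23 to 1.57 in 3 libraries and 1.13 (0.908 to 1.41), with an interval that holds 1, in leucine-free WT cells. The kinase Bckdk exceeded the phosphatase Ppm1k by 14.2 to 18.5-fold in RNA. In footprints that ratio was 20.0 (14.6 to 28.1) in replete WT cells and 39.5 (24.4 to 68.5) in leucine-free KO cells, and the WT leucine-free value of 37.5 rests on 5 Ppm1k footprints.

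**Figure D1:**
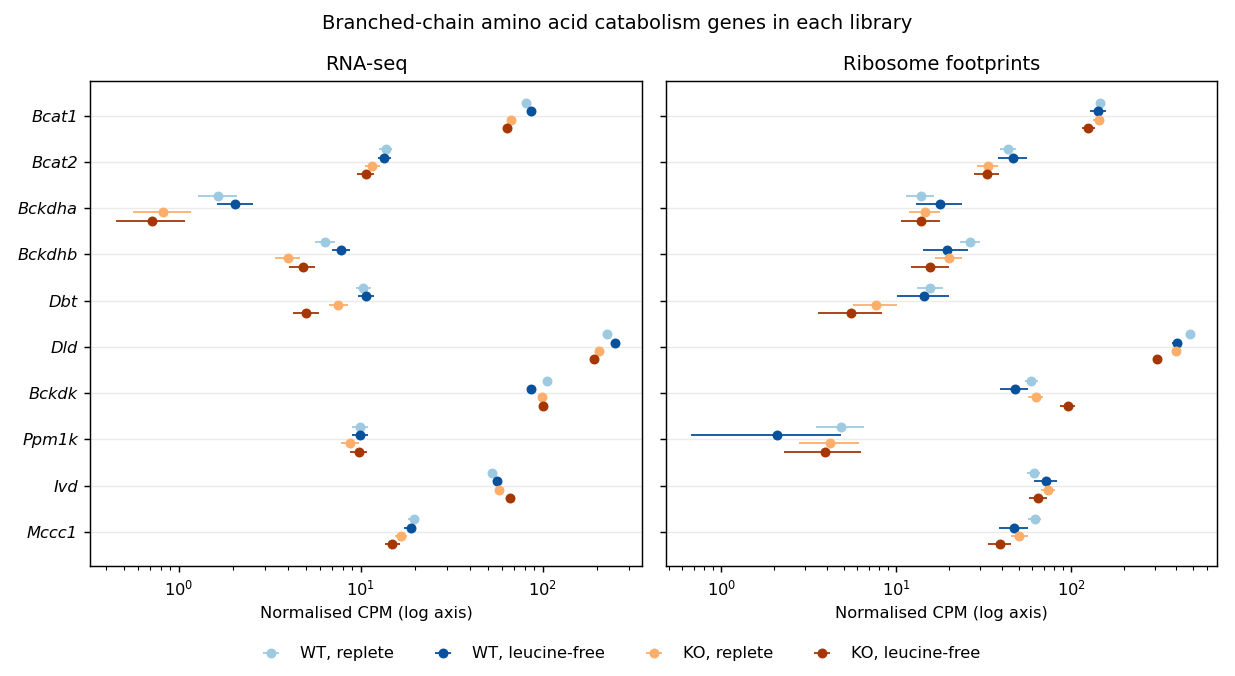
Normalised CPM (log axis) of the 10 genes in RNA-seq (left) and ribosome footprints (right), 1 point per library with its exact Poisson 95% interval of counting error. Dld is the highest in all 8 libraries, the KO libraries of Dbt lie below the WT libraries in both assays, and Bckdk footprints are highest in KO leucine-free cells at 95.3 CPM.

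Bckdha, the catalytic subunit that BCKDK phosphorylates, was counted over only part of its exons. The gene lies on chromosome 7, 25629946 to 25658981 on the minus strand (GRCm38), with 1899 exonic bases in 9 blocks. Of these bases 1171 (61.7%) are also exonic in B3gnt8, which lies on the opposite strand, and they form the 5 blocks nearest the 3′ end. Per the file headers the counting was run without a strand option, and reads on exons of several genes were not counted. Its counts therefore come from the 728 bases of the 4 blocks nearest the 5′ end, in both assays. B3gnt8 itself received 1 to 7 reads a library.

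**Figure D2:**
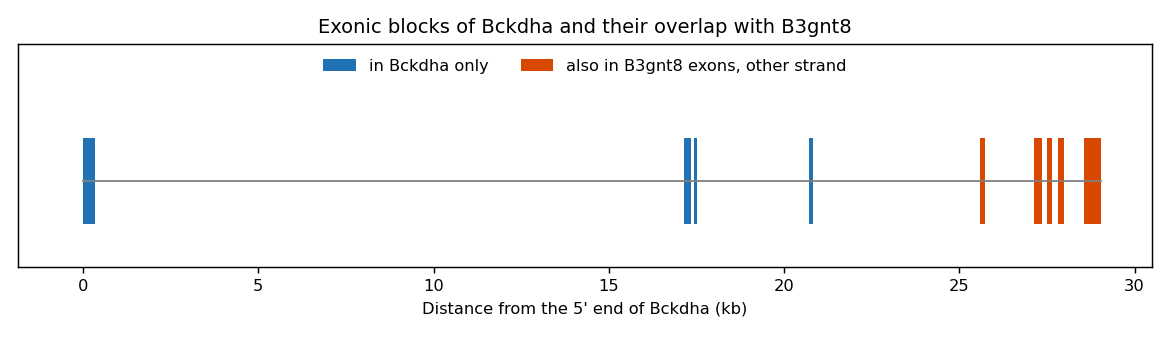
The 9 exonic blocks of Bckdha drawn to scale by distance from the 5′ end of the gene (kb), coloured by whether B3gnt8 exons on the other strand cover them. The 4 blocks at the 5′ end belong to Bckdha only, and the 5 blocks at the 3′ end are shared whole.

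Other overlaps were smaller. Bcat2 shares 15.9% of its exonic bases with other genes, Mccc1 5.6% and Bcat1 3.6%, and the other 6 genes share none. With those bases uncounted, CPM of these genes is a lower reading of the transcript, and ratios between libraries compare the same unshared bases.

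In WT cells 1 h without leucine left the RNA of these genes close to its replete level. No member of 10 passed a 2-fold difference with an interval that excluded 0, where 1.71% of 10809 measured genes did, and none passed a log2 ratio of 0.5 (1.41-fold), where 9.17% did. The members' log2 ratios ran from -0.28 to 0.32, with a median of 0.07 beside 0.01 over all genes. Bckdk was the lowest at -0.28 (-0.35 to -0.22), from 105 CPM replete to 86.6 leucine-free. Bckdhb at 0.30 (0.06 to 0.54), Dld at 0.16 (0.12 to 0.20), Ivd at 0.10 (0.01 to 0.19) and Bcat1 at 0.08 (0.02 to 0.15) had intervals above 0.

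WT footprints gave no call either. Of 9 measured members none passed 2-fold (1.48% of 9164 genes) or 0.5 (10.5%). Below 0 were 6 of 9, as were 5493 of all 9164 genes, with a median of -0.10 beside -0.07 over all genes. The intervals of Mccc1 at -0.39 (-0.70 to -0.10), Bckdk at -0.31 (-0.62 to -0.02) and Dld at -0.25 (-0.35 to -0.15) lay below 0. That of Bckdk held 0 with DESeq2 size factors, at -0.27 (-0.58 to 0.02), and with total counts, at -0.22 (-0.53 to 0.06). Dld, with the narrowest interval of the 9, was thus higher in RNA and lower in footprints in the leucine-free WT library. Its translation efficiency (TE, the normalised footprint level over the normalised RNA level) had a log2 ratio of -0.41 (-0.52 to -0.30). Bckdhb TE was lower still, at -0.73 (-1.24 to -0.22). It was the only member of 9 past 0.5 in TE, where 20.5% of 9092 genes passed, and none passed 2-fold, where 3.23% did. The members' median TE ratio was -0.12 beside -0.10 over all genes.

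In KO cells the kinase Bckdk stood apart from the other members. Bckdk lies on chromosome 7, 127904082 to 127910221 on the plus strand, and shares no exonic base with another gene. Its RNA level was 105, 86.6, 99.7 and 100 CPM in the 4 conditions, and its footprint level was 59.2, 47.5, 62.7 and 95.3 CPM. In RNA the WT leucine-free library was the low one and the 2 KO libraries were level, whereas in footprints the KO leucine-free library was the high one. From replete to leucine-free KO cells the log2 ratio was 0.01 (-0.06 to 0.08) in RNA and 0.60 (0.40 to 0.81) in footprints, or 1.52-fold higher. The footprint ratio lay above that of 93.8% of measured genes. Bckdk TE on the log2 scale was -0.83, -0.86, -0.67 and -0.07 in the 4 conditions. The KO leucine-free value was 0.59 (0.38 to 0.80) above the KO replete value.

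Among the subunits of BCKDH in KO cells, the transacylase Dbt had the largest RNA difference between the media. Dbt (chromosome 3, 116513070 to 116549981, plus strand) stood at 10.3, 10.7, 7.54 and 5.03 RNA CPM and at 15.6, 14.5, 7.64 and 5.55 footprint CPM in the same order of conditions. In each assay the 2 WT libraries were close to each other, and both KO libraries lay below them. Without leucine Dbt RNA was lower in KO cells, at a log2 ratio of -0.58 (-0.88 to -0.30), beside 0.05 (-0.15 to 0.25) in WT cells. Its footprints, only 49 and 24 in the KO libraries, gave -0.45 (-1.23 to 0.27).

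Over all members in KO cells, none of 10 passed 2-fold in RNA (3.19% of genes) and 1, Dbt, passed 0.5 (11.6%), with a median of -0.09 beside -0.01 over all genes. In footprints none of 9 passed 2-fold (2.12%) and 1, Bckdk, passed 0.5 (14.9%). The other 8 footprint ratios were all below 0, as were those of 4837 of all 9164 genes. The median over the 9 members was -0.20 beside -0.02 over all genes. Intervals below 0 were those of Mccc1 at -0.37 (-0.65 to -0.10), Dld at -0.34 (-0.44 to -0.25) and Bcat1 at -0.20 (-0.36 to -0.05). In TE none of 9 passed 2-fold (3.04%), while Bckdk was higher and Bckdhb lower past 0.5 (21.2%). Bckdhb TE was -0.61 (-1.14 to -0.07) in KO and so was lower without leucine in both genotypes, from 2.05 to 1.32 in WT and from 2.33 to 1.72 in KO on the log2 scale.

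**Figure D3:**
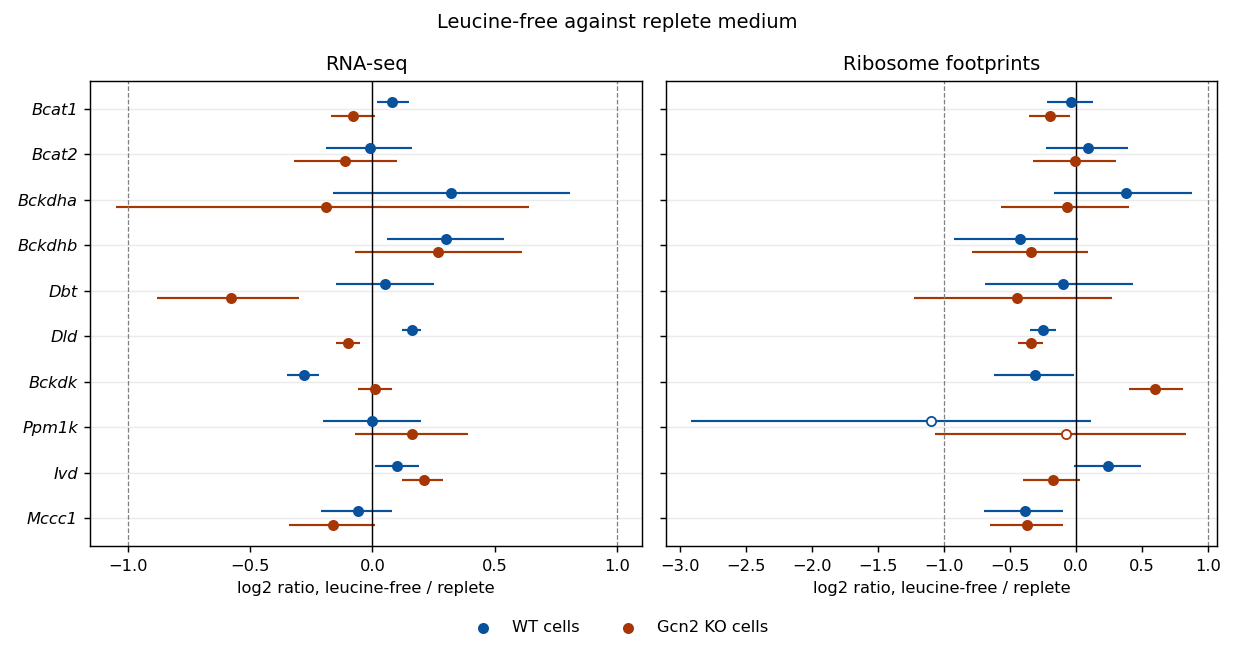
log2 ratio of leucine-free to replete medium for each gene in WT (blue) and Gcn2 KO (brown) cells, RNA-seq left and footprints right, with 95% intervals of counting error; open symbols mark Ppm1k, not measured in footprints, and dashed lines mark 2-fold. Bckdk footprints at 0.60 in KO and -0.31 in WT cells lie on opposite sides of 0, and Dbt RNA at -0.58 is the lowest KO value in RNA.

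The difference between the 2 leucine responses (WT minus KO) was computed for every gene from all 4 libraries of an assay. In RNA none of 10 members passed 2-fold (4.71% of genes) and Dbt passed 0.5 (16.5%), at 0.63 (0.29 to 0.98). The members' median was 0.10 beside 0.01 over all genes. Dld at 0.26 (0.20 to 0.32) and Bcat1 at 0.16 (0.05 to 0.27) also had intervals above 0, and Bckdk at -0.29 (-0.39 to -0.20) had the 1 interval below 0. In footprints none of 9 passed 2-fold (4.79%) and Bckdk passed 0.5 (19.5%), at -0.92 (-1.27 to -0.56), a value above that of 4.7% of genes. The median was 0.10 beside -0.04 over all genes. Ivd footprints at 0.42 (0.10 to 0.75) had an interval above 0. In TE none of 9 passed 2-fold (8.16%), and Bckdk at -0.62 (-0.99 to -0.26) and Ivd at 0.53 (0.18 to 0.88) passed 0.5 (26.5%).

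Bcat1, Bcat2, Ppm1k, Ivd and Mccc1 differed little with leucine in RNA. Bcat1 (chromosome 6, 144993835 to 145076184, minus strand) stood at 81.5, 86.5, 67.0 and 63.4 RNA CPM in the 4 conditions, with the WT pair above the KO pair. Its footprints were level in 3 conditions at 147, 143 and 144 CPM and lower in KO leucine-free cells at 125 CPM. Bcat2 (chromosome 7, 45570153 to 45589711, plus strand) stood at 13.7, 13.5, 11.5 and 10.7 RNA CPM and at 43.7, 46.3, 33.4 and 33.1 footprint CPM. For Bcat2 the split was by genotype in both assays, and all 4 leucine ratios had intervals that held 0. Ppm1k (chromosome 6, 57506502 to 57535468, minus strand) ranged from 8.76 to 9.94 RNA CPM, with intervals that held 0 in all 5 RNA comparisons.

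Ivd (chromosome 2, 118861954 to 118882909, plus strand) was the 1 member whose RNA was higher in KO than in WT cells in both media. It stood at 52.4, 56.2, 57.2 and 66.0 RNA CPM, highest in KO leucine-free cells, and at 61.0, 71.9, 73.6 and 64.7 footprint CPM, where the order differed. In KO cells without leucine its RNA ratio was 0.21 (0.12 to 0.29) while its TE ratio was -0.39 (-0.62 to -0.16). Mccc1 (chromosome 3, 35959312 to 36000678, minus strand) stood at 19.6, 18.8, 16.7 and 14.9 RNA CPM and at 62.0, 47.1, 50.5 and 39.1 footprint CPM. Both leucine-free footprint libraries of Mccc1 lay below the replete library of the same genotype. The ratio of Ivd to Mccc1 RNA per kilobase, consecutive dehydrogenase and carboxylase of the leucine route, was 5.01, 5.62, 6.43 and 8.31 in the 4 conditions.

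Compared with WT cells, KO cells had lower RNA for most of the 10 genes in both media. In replete medium 9 of 10 were below 0, as were 5516 of all 10809 genes, with a median log2 ratio of -0.24 beside -0.01 over all genes. In leucine-free medium 8 of 10 were below 0, as were 5551 of all 10809 genes, with a median of -0.37 beside -0.01. The epithelial marker sum, most of it Sox9 and Krt18, moved with genotype too. It was 240 and 333 CPM in WT and 481 and 1104 CPM in KO RNA, and its part in these ratios was not tested. These 2 comparisons share no library with each other, but each shares its libraries with the leucine comparisons above, and with 1 library of each genotype in each medium a difference of line cannot be told apart from the loss of Gcn2. Past 2-fold were 0 of 10 in replete medium (6.83% of genes) and 2 of 10 in leucine-free medium (8.36%), Bckdha and Dbt. The count of 0 became 1 with the length trend removed, and the count of 2 became 1 at a mean count of at least 100, which Bckdha does not reach. Past 0.5 were 2 of 10 in replete medium (23.5%), Bckdha and Bckdhb, and 3 of 10 in leucine-free medium (27.1%), those 2 and Dbt.

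Bckdha, Bckdhb and Dbt, the subunits that belong to BCKDH alone, had the lowest KO to WT RNA ratios of the 10 genes in both media. Lower KO RNA was also seen in the other complexes that use Dld. Of their 8 measured genes 6 were below 0 in replete medium, with a median of -0.08 and a lowest ratio of -0.67. In leucine-free medium 8 of 8 were below 0, with a median of -0.41 and a lowest ratio of -0.94. Bckdha RNA was counted 67, 81, 31 and 22 times in the 4 conditions, or 1.64, 2.05, 0.823 and 0.718 CPM, with both KO libraries below both WT libraries. The KO to WT log2 ratio was -0.98 (-1.66 to -0.36) with leucine and -1.49 (-2.26 to -0.82) without. Bckdhb (chromosome 9, 83925145 to 84124240, plus strand) stood at 6.37, 7.84, 3.98 and 4.80 RNA CPM, again with no overlap of the genotypes, and gave -0.68 (-0.98 to -0.38) and -0.71 (-1.0 to -0.42). Dbt gave -0.45 (-0.68 to -0.23) and -1.09 (-1.36 to -0.82). Dld (chromosome 12, 31331277 to 31351453, minus strand), the shared subunit, gave -0.14 (-0.18 to -0.09) and -0.40 (-0.44 to -0.35), beside members' medians of -0.24 and -0.37. Bcat1 gave -0.28 (-0.36 to -0.21) and -0.45 (-0.53 to -0.37), and without leucine its interval overlapped that of Dld. The Dld to Dbt RNA ratio per kilobase was 19.8 and 21.3 in WT and 24.7 and 34.4 in KO cells.

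Footprints separated these subunits. Dbt footprints were lower in KO past 2-fold in both media, at -1.02 (-1.53 to -0.55) and -1.37 (-2.19 to -0.59). The replete call ended with total counts, a prior count of 5 or the length trend removed, where Dbt footprints stood at -0.95, -0.94 and -0.99, and both calls ended at a mean count of at least 100, which Dbt footprints do not reach. Bckdha footprints were not past 2-fold: they stood at 13.8, 17.8, 14.7 and 13.9 CPM, and the KO to WT ratios were 0.09 (-0.32 to 0.49) and -0.36 (-0.95 to 0.24). The log2 TE of Bckdha was accordingly 3.07 and 3.12 in WT and 4.14 and 4.25 in KO cells, above 96.6% to 99.1% of genes in each library, and its KO to WT TE ratio was 1.07 (0.35 to 1.79) and 1.13 (0.25 to 2.0). These TE values rest on 22 to 81 RNA reads and 43 to 120 footprints over the unshared 5′ blocks. Their place among genes counted over more of their exons is thus not like for like. Bckdhb footprints stood at 26.4, 19.4, 20.0 and 15.7 CPM, with ratios of -0.40 (-0.73 to -0.09) and -0.31 (-0.86 to 0.26).

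Over the 9 members measured in footprints, the KO to WT median was -0.27 in replete medium beside -0.04 over all genes, and -0.31 in leucine-free medium beside 0.00. In replete medium 1 of 9, Dbt, passed 2-fold (2.92% of genes), and it was also the 1 member past 0.5 (16.3%). In leucine-free medium Dbt again was the 1 member past 2-fold (7.20%), and past 0.5 (26.7%) stood Dbt, lower, and Bckdk, higher at 1.00 (0.70 to 1.31), just under the 2-fold limit and past it with total counts. In TE, Bckdha was the 1 member past 2-fold in replete medium (1.40%) and in leucine-free medium (5.96%). Both calls ended with a prior count of 5, where Bckdha TE stood at 0.98 and 0.90, and at a mean count of at least 100, which Bckdha does not reach. Past 0.5 in TE were Bckdha, higher, and Dbt, lower at -0.57 (-1.09 to -0.05), in replete medium (12.0%), and Bckdha and Bckdk, both higher, in leucine-free medium (25.9%). The members' median TE ratio was 0.14 beside -0.02 over all genes in replete and 0.06 beside 0.04 in leucine-free medium.

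**Figure D4:**
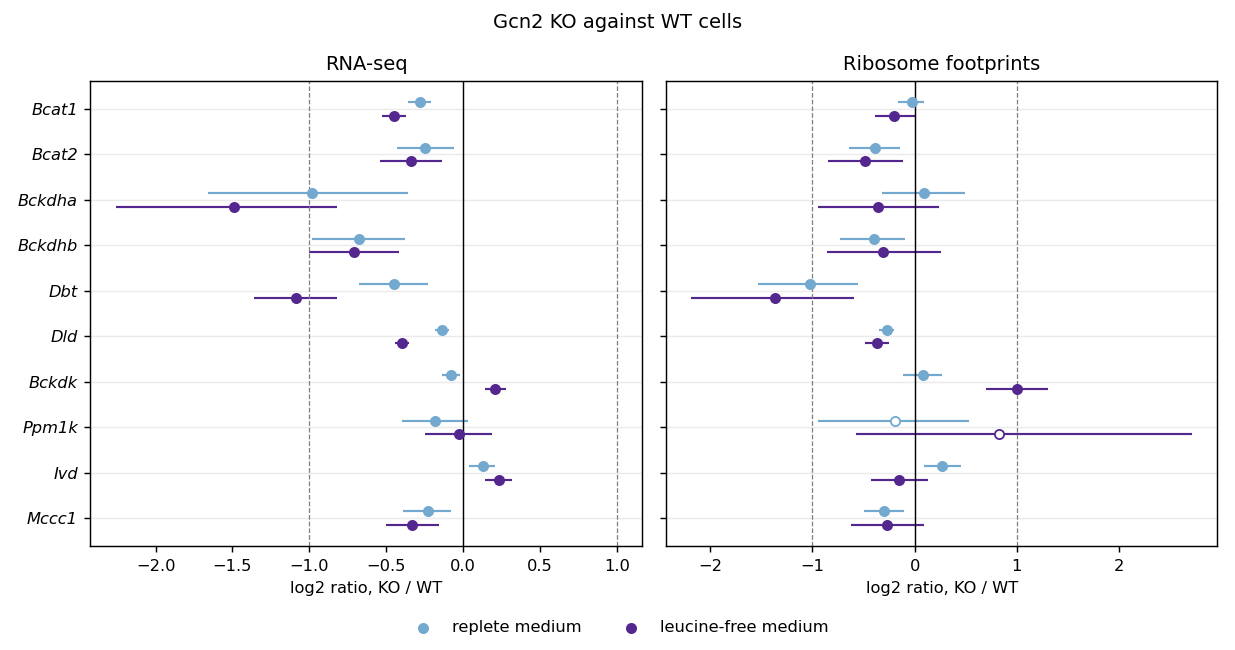
log2 ratio of Gcn2 KO to WT cells for each gene in replete (light blue) and leucine-free (purple) medium, RNA-seq left and footprints right, with 95% intervals of counting error; open symbols mark Ppm1k, not measured in footprints, and dashed lines mark 2-fold. Dbt lies left of 0 in both assays and both media, Bckdha does so in RNA at -0.98 and -1.49, and Bckdk footprints reach 1.00 in leucine-free medium.

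Further enzymes of the 3 amino acids were taken as fixed lists. The 4 lists nearest the pathway hold 21 genes: the rest of the leucine branch, the isoleucine and valine branches, the steps from propionyl-CoA to succinyl-CoA, and the mitochondrial carrier with its regulators. In leucine-free KO cells 16 of the 19 measured in footprints were below 0, as were 4837 of all 9164 genes. Their median was -0.48 beside -0.02 over all genes, and 8 were lower past 0.5, none higher, where 14.9% of all genes passed in either direction. In WT cells 13 of 19 were below 0, as were 5493 of all 9164 genes, with a median of -0.16 beside -0.07. Slc25a44 was the 1 gene higher past 0.5. The difference of the responses (WT minus KO) was above 0 for 17 of 19, as for 4262 of all 9164 genes, with a median of 0.27 beside -0.04. In RNA the median over 20 measured genes was 0.12 in WT, beside 0.01 over all genes, and -0.11 in KO, beside -0.01. The RNA difference of the responses was above 0 for 14 of 20, as for 5491 of all 10809 genes, with a median of 0.16 beside 0.01.

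Among these genes, Aldh6a1, the methylmalonate-semialdehyde dehydrogenase of valine breakdown, had the largest footprint ratio in KO cells at -1.31 (-2.03 to -0.68). It was counted 82, 18, 93 and 25 times in the footprints of the 4 conditions, or 9.42, 7.44, 14.5 and 5.78 CPM, so the KO replete library was also the highest of the 4. Mccc2, the partner subunit of Mccc1, gave -0.68 (-0.98 to -0.38), from 49.3 to 30.8 CPM. Mut, the methylmalonyl-CoA mutase, gave -0.53 (-0.73 to -0.33), and Oxct1, which activates acetoacetate, gave -0.55 (-0.67 to -0.43), beside -0.47 (-0.60 to -0.34) in WT cells. Mmaa, which serves the cobalamin cofactor of the mutase, was counted 59, 25, 45 and 18 times and gave a WT minus KO footprint difference of 1.35 (0.33 to 2.38). Auh, the methylglutaconyl-CoA hydratase of the leucine branch, had the 1 TE ratio past 2-fold in leucine-free WT cells, 1.03 (0.40 to 1.65), with RNA at -0.68 (-0.99 to -0.38). Mccc2, Mut and Oxct1 were chosen after their values were seen.

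**Figure D5:**
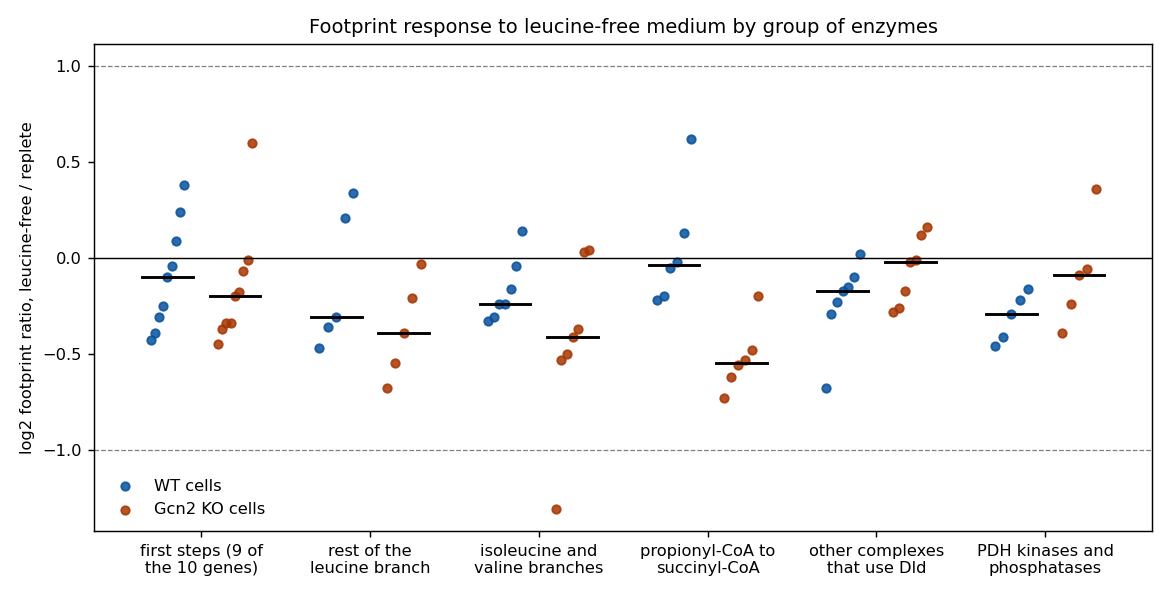
log2 footprint ratio of leucine-free to replete medium for each measured gene, by group of enzymes, in WT (blue) and Gcn2 KO (brown) cells; the horizontal bars are medians and dashed lines mark 2-fold. All 6 genes from propionyl-CoA to succinyl-CoA lie below 0 in KO cells, as do 4837 of all 9164 measured genes. Their median is -0.54, beside a median of -0.03 in WT cells.

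Regulators and neighbouring complexes were taken as the remaining lists. In KO against WT cells without leucine, 27.1% of all genes passed 0.5 in RNA. Of the other complexes that use Dld 3 of 8 measured genes passed, all lower. Of the kinases and phosphatases of pyruvate dehydrogenase 3 of 6 passed, 2 higher and 1 lower. Both measured genes of the carrier list passed, each lower. In footprints 26.7% of all genes passed. The counts in the same order were 2 of 7, both lower, 3 of 5, all higher, and 1 of 1, lower. Klf15, a transcription factor known to regulate branched-chain amino acid genes, was counted 90, 86, 22 and 5 times in RNA, and its KO leucine-free to KO replete ratio was -1.73 (-3.60 to -0.40). Klf15 RNA was lower in KO than in WT cells past 2-fold in both media, at -1.89 (-2.66 to -1.23) and -3.61 (-5.39 to -2.46). Slc25a44, the mitochondrial carrier of branched-chain amino acids, stood at 53.2, 50.4, 33.5 and 31.3 RNA CPM, with the genotypes apart; it was chosen after its values were seen. Of the other complexes that use Dld, 8 measured genes were all above 0 in WT RNA without leucine, as were 5587 of all 10809, with a median of 0.23 beside 0.01 and none past 0.5. In KO cells 4 of 8 were above 0, as were 5233 of 10809, with a median of 0.01 beside -0.01. In footprints 6 of 7 were below 0 in WT cells, where 5493 of all 9164 were, and 5 of 7 in KO cells, where 4837 were. Like that of Dld, their TE was lower without leucine in WT cells. It was below 0 for 7 of 7, as for 5466 of all 9092 genes, with a median of -0.49 beside -0.10. In KO cells TE was below 0 for 4 of 7, as for 4794 of 9092, with a median of -0.12 beside -0.03. Dlst, the most counted of that list in RNA and the transsuccinylase of the 2-oxoglutarate dehydrogenase complex, ranged over 295 to 341 RNA CPM and 305 to 332 footprint CPM. Among the kinases and phosphatases of pyruvate dehydrogenase, Pdk1, the most counted in RNA, is a relative of Bckdk. In WT RNA without leucine 2 of 6 genes of that list passed 0.5 (9.17% of all genes), the phosphatases Pdp1 at 0.56 (0.48 to 0.65) and Pdp2 at -0.52 (-0.60 to -0.44), on opposite sides and named after their values were seen. Pdk1 footprints stood at 67.8, 60.3, 70.2 and 89.9 CPM, highest in KO leucine-free cells like those of Bckdk, with RNA at 226, 229, 313 and 293 CPM. The rest of the list differed: of 5 measured footprint ratios in KO cells without leucine, 1, that of Pdk1, was above 0 and 4 were below. Their median was -0.09 beside -0.02 over all genes. Pdk3, named after its values were seen, had more footprints than Pdk1, at 179, 146, 112 and 107 CPM, lowest in KO leucine-free cells. The WT minus KO footprint difference of Pdk1 was -0.52 (-0.85 to -0.20).

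Promoter sequences were read for the C/EBP-ATF response element, the motif TGATGNAA through which ATF4 acts on many amino acid genes, because Atf4 footprints were higher in leucine-free WT cells. The windows are the 250 bases before each RefSeq transcript start on GRCm38.p6. Of the 10 genes 9 matched, with 12 windows, and Dbt had no window. On either strand the motif was found in 0 of the 12 windows, beside 3.45% of all 32851 windows. A search for CCAAT, a common promoter element chosen after the values were seen, found it on either strand in 7 of 12 windows, beside 33.85% of all windows. The neighbouring lists held it about as often, so it was not particular to the members. It was in 1 of 3 windows of the leucine branch, 5 of 8 of the isoleucine and valine branches and 4 of 7 from propionyl-CoA to succinyl-CoA. The other Dld complexes had 8 of 14, the kinases and phosphatases of pyruvate dehydrogenase 4 of 8, and the carrier list 1 of 2. Of the members' windows with CCAAT, 3 are shown because their genes carry differences given above. They are Bckdk for its KO footprints, Dld for its opposite RNA ratios in the 2 genotypes, and Bckdhb for its lower RNA in KO cells. A link between CCAAT and any of these differences was not tested. Capitals mark CCAAT, or ATTGG where it lies on the other strand, and each is written 5′ to 3′ on the gene's strand.
Bckdk, chr7:127903823-127904072, plus strand: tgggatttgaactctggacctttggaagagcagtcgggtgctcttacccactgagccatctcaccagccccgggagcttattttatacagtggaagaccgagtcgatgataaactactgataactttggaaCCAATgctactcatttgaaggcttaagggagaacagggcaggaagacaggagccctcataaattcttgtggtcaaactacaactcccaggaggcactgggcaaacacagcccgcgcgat
Dld, chr12:31351472-31351721, minus strand: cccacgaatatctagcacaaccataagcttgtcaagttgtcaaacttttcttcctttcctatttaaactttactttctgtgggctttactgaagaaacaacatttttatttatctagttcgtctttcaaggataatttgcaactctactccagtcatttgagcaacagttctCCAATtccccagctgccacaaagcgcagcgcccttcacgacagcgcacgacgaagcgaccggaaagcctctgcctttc
Bckdhb, chr9:83924887-83925136, plus strand: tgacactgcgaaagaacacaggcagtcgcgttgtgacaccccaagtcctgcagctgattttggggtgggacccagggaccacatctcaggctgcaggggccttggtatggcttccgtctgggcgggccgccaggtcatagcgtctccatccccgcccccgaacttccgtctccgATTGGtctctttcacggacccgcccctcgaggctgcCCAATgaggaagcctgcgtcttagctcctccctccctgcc
The Bckdk and Dld windows hold 1 CCAAT each and the Bckdhb window shown holds 2, while a second Bckdhb window, not shown, holds none. Ivd had 4 and Mccc1 3, while the windows of Bcat2 and Bckdha had none. A match is a run of letters and not a measured site.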

How the data were processed

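The authors deposited raw counts of reads per gene for 8 libraries. Per the file headers they were made with featureCounts 1.6.4 on exons of Ensembl 96, and the recorded command sets nothing for strand, multi-mapping reads or overlapping genes. The submitters' processing notes also name cutadapt, STAR and GRCm38, and the labels' protocols name a cycloheximide lysis, ribonuclease I footprints and standard Illumina RNA-seq libraries. Symbols came from Ensembl identifiers, and gene class from the RefSeq table of GRCm38.p6 by symbol, which gave 21409 protein-coding genes. Mitochondrially encoded genes, whose symbols differ between the tables, are not among them.

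Counts were scaled with TMM factors per assay (edgeR 4.0.16, R 4.3.3), and log2 ratios used a prior count of 0.5. Pairs of libraries have exact conditional binomial (Clopper-Pearson) intervals, TE and WT minus KO values Wald intervals, and CPM exact Poisson intervals, all at 95%. With 1 library a group there was no test. A gene was measured at a mean count of at least 30 over 4 libraries (10809 genes in RNA-seq, 9164 in footprints, 9092 in both). It passed a threshold (log2 ratio of 1, or 0.5 as a second description) when its interval also excluded 0. The interval code was tested on simulated data. Alternatives were DESeq2 1.42.0 size factors, total counts, 3 other filters, a prior count of 5 and removal of a length trend.

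Named were all members, Eif2ak4, Atf4 and, from each of 6 pathway lists, genes past 2-fold in a leucine comparison or else the most counted gene; the text marks other genes as chosen after their values were seen. Members and lists were chosen with earlier results of these data known. Protein sequences were not used here. Scripts ran in Python 3.11.15 with numpy 2.4.6, pandas 2.3.3, scipy 1.17.1, statsmodels 0.14.6 and matplotlib 3.10.9.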

Additional observations from a re-analysis of the deposited data

Results flagged for a closer look

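2 members had leucine responses whose intervals excluded 0 on opposite sides in WT and KO cells. For Dld RNA the log2 ratio of leucine-free to replete medium was 0.16 in WT and -0.10 in KO cells, a WT minus KO difference of 0.26 (0.20 to 0.32). For Bckdk footprints it was -0.31 in WT and 0.60 in KO cells, a difference of -0.92 (-1.27 to -0.56). The WT interval of Bckdk held 0 with DESeq2 size factors, total counts or the length trend removed, where its ratio was -0.27, -0.22 and -0.23, and the Dld intervals excluded 0 under each of these. Both intervals cover counting error only. With 1 library a group neither difference was tested across cultures.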

How the results depend on the processing

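All 105 recomputed medians stayed within the median bounds of the members' intervals, and 556 of 560 recomputed ratios of single members stayed within their own intervals. The 4 exceptions were Dld footprints, KO against WT in replete medium, at -0.20 with total counts, and, with the length trend removed, WT leucine responses of 0.18 for Bcat1 RNA, 0.10 for Dld RNA and -0.25 for Dld TE. Signs changed in 22 of the 560 ratios, none larger than 0.15 in size at first, and in 1 median, that of TE in WT cells without leucine, from -0.12 to 0.03 with the length trend removed. No member past 2-fold changed sign. Counts of members past 2-fold stayed within 1.5 times in 93 of 105 cases, and the other 12 all concern KO against WT cells. In RNA, the replete count went from 0 to 1 with the length trend removed, and the leucine-free count from 2 to 1 at a mean count of at least 100. In footprints, the replete count of 1 became 0 with total counts, with at least 100, with a prior count of 5 and with the length trend removed, and the leucine-free count of 1 became 2 with total counts and 0 with at least 100. In TE, both counts of 1 became 0 with at least 100 and with a prior count of 5. The filter at 100 tests fewer genes, and for the other settings the cause was not tested beyond values that lie next to the limit, such as Bckdk at 1.00 and Dbt at -1.02. Counts past 0.5 moved in 9 of 105 cases. Footprint depth limits Ppm1k, at 5 reads in the WT leucine-free library, and Dbt, at 24 in the KO leucine-free library.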
